A study of Mus musculus with 44 samples.

Results

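The genes of fatty acid uptake and beta oxidation were examined in the left ventricle of mice carrying an activated protein kinase C epsilon (PKCε) and in their nontransgenic controls. The members were 37 genes chosen by symbol for their step in the pathway, of which 33 had a probe set assigned to 1 gene among the 12394 genes of the arrays. Acsl1, Acsl3 and Ucp2 had no named probe set in the annotation used, Cpt1b appeared only on a probe set shared with other genes, and these 4 members were not analysed here. The 33 measured genes comprised 4 of uptake, 2 of activation, 5 of the carnitine shuttle, 12 of the mitochondrial spiral, 3 of electron transfer, 3 of peroxisomal oxidation and 4 thioesterase, malonyl-CoA and uncoupling genes.

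Long-chain fatty acids are the main fuel of the adult heart. They are freed from circulating triglyceride, carried into the cardiomyocyte, bound to coenzyme A and passed into the mitochondrion as carnitine esters. There the beta oxidation spiral shortens the chain by repeated rounds of dehydrogenation, hydration, a further dehydrogenation and thiolysis, and the electrons of the first step reach the respiratory chain through the electron transfer flavoprotein. Peroxisomes handle chains that mitochondria take up poorly.

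The study asked how blocking connective tissue growth factor (CTGF) alters the transcriptome in a mouse model of dilated cardiomyopathy. PKCε mice express a rabbit PKCε with the activating A159E substitution in cardiomyocytes, under the mouse Myh6 promoter on an FVB/N background, and the controls were nontransgenic FVB/N mice from a commercial supplier. From 3 months of age the mice received the anti-CTGF antibody FG-3149 or nonimmune mouse IgG at 30 mg/kg by intraperitoneal injection, 2 injections per week for 3 months, and the hearts were taken at 6 months. The groups were PKCε with FG-3149 (n = 12; 6 female, 6 male), PKCε with IgG (n = 10; 5 female, 5 male), FVB/N with FG-3149 (n = 12; 6 female, 6 male) and FVB/N with IgG (n = 10; 7 female, 3 male), with 1 array per mouse and 250 ng of total RNA per array. Every mouse carried the FVB/N background, and none was left uninjected.

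Values are given as log2 of the deposited ratio of a probe set to its median over the 44 arrays, so that 0 is the level of the median array and levels of different genes cannot be compared. A gene was called where limma's adjusted p, over 12394 genes, was under 0.05. Array medians of the ratio lay between 0.954 and 1.032. Ratios to the median do not show whether a marker is present, so the tissue label could be checked only for evenness: the 13 measured ventricular cardiomyocyte markers had a mean log2 level of -0.01 ± 0.05 in PKCε with FG-3149, -0.07 ± 0.09 in PKCε with IgG, 0.04 ± 0.05 in FVB/N with FG-3149 and 0.02 ± 0.12 in FVB/N with IgG (SD). These means hide opposite moves. Under IgG 3 of the 13 were called higher and 4 lower in PKCε than in FVB/N, with differences from -0.78 to 0.31. Of all genes 20.7% were called higher and 21.5% lower. Prkce, the mouse gene of the expressed kinase, averaged 0.22 in PKCε with FG-3149, 0.07 in PKCε with IgG, -0.19 in FVB/N with FG-3149 and -0.45 in FVB/N with IgG, and its PKCε difference under IgG was 0.49 ± 0.145 (adjusted p = 0.0060). Whether its probes detect the rabbit transcript was not tested. In whole ventricle, fewer cardiomyocytes and less RNA per cardiomyocyte cannot be told apart.

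Some arrays stood apart. A mean atrial marker level (Sln, Myl7, Myl4) above 4 was found on 2 arrays of PKCε with FG-3149, 2 of PKCε with IgG, 1 of FVB/N with FG-3149 and 5 of FVB/N with IgG. The mean lung marker level was 8.76 on PKCε IgG replicate 9, 2.39 on PKCε IgG replicate 10, 3.74 on FVB/N IgG replicate 4 and 2.20 on FVB/N IgG replicate 9, and at most 1.65 on the other arrays. Both Sftpc and Scgb1a1 exceeded 3 on the first pair only. The mean brown fat marker level (Ucp1, Cidea, Cox8b) was 2.45, 2.40 and 1.48 on FVB/N IgG replicates 1, 4 and 8. It was at most 0.14 in each of the other groups. The mean adipocyte marker level was 2.96, 2.04 and 2.20 on FVB/N IgG replicates 1, 2 and 4. With the adipocyte level as a covariate 28 of the 29 transgene calls under IgG were kept, and the part of brown fat was not tested. PKCε IgG replicate 9 was the lowest array of its group for 19 of 33 members. FVB/N FG-3149 replicate 11, labelled female, had Eif2s3y at 3.61, against -1.92 to 0.04 on the other 23 female arrays and 4.43 to 5.19 on the 20 male arrays, while its Xist level of -0.71 was nearer that of the females. The mouse numbers in the labels ran from 38 to 191 in PKCε with FG-3149, from 338 to 349 in FVB/N with FG-3149 and from 420 to 443 in FVB/N with IgG. In PKCε with IgG they ran from 322 to 362 in females and from 192 to 196 in males, so sex and number range cannot be told apart there. Nor did the numbers of antibody and IgG mice overlap within either genotype, or those of the genotypes within either treatment. Antibody or transgene and number range therefore cannot be told apart in any comparison of groups given here. As the controls were bought from a supplier, the transgene and the source of the mice cannot be told apart either.

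Under IgG, most of the pathway was lower in the transgenic mice. Of the 33 members, 27 were lower and 2 higher in PKCε than in FVB/N ventricle, where 21.5% of all 12394 genes were called lower and 20.7% higher, 42.2% in either direction. The median log2 difference was -0.50 over the members and -0.05 over all genes. The calls covered every step: 3 of 4 uptake genes, 4 of 5 carnitine shuttle genes, 10 of 12 spiral genes, all 3 electron transfer genes, all 3 peroxisomal genes and all 4 genes of the last group fell, while the only uptake and activation genes that rose were Slc27a1 and Acsl5. In 1 member, Acaa2, all 10 PKCε IgG arrays lay below all FVB/N IgG arrays, a separation that 1.72% of all genes showed, and 0 members lay wholly above, against 2.66% of all genes.

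Fibroblast markers and the Gapdh measure of RNA quality moved with this comparison. The mean fibroblast marker level ran from 0.21 to 1.31 in PKCε with IgG and from -0.90 to 0.23 in FVB/N with IgG, and 8 of 9 markers were called higher in PKCε. With that level as a covariate, chosen after seeing the data, 3 of 33 members were called lower (Acaa2, Echs1 and Etfa) and 0 higher, and the median difference was -0.13. Over all genes that fit called 1381, against 5235 without the covariate. As the ranges barely overlap, genotype and fibroblast marker level can hardly be told apart in these data. The Gapdh 3' minus 5' probe set difference, a sign of RNA degradation, averaged 0.30 in PKCε with IgG and -0.04 in FVB/N with IgG. The group means of the same difference for Actb were alike, at 0.09 in PKCε with IgG and 0.10 in FVB/N with IgG. On single arrays both could be high: PKCε IgG replicate 10 was the highest of its group for Gapdh (0.90) and for Actb (0.56). That array was also the lowest of its group for Acaa2, Echs1 and Etfa. With the Gapdh difference as a covariate 28 members were called, and the share of all genes is not given for that fit. Slc22a5 then had -0.19 (adjusted p = 0.28), Fabp3 -0.10 (adjusted p = 0.11) and Slc27a1 0.39 (adjusted p = 0.062).

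**Figure D1:**
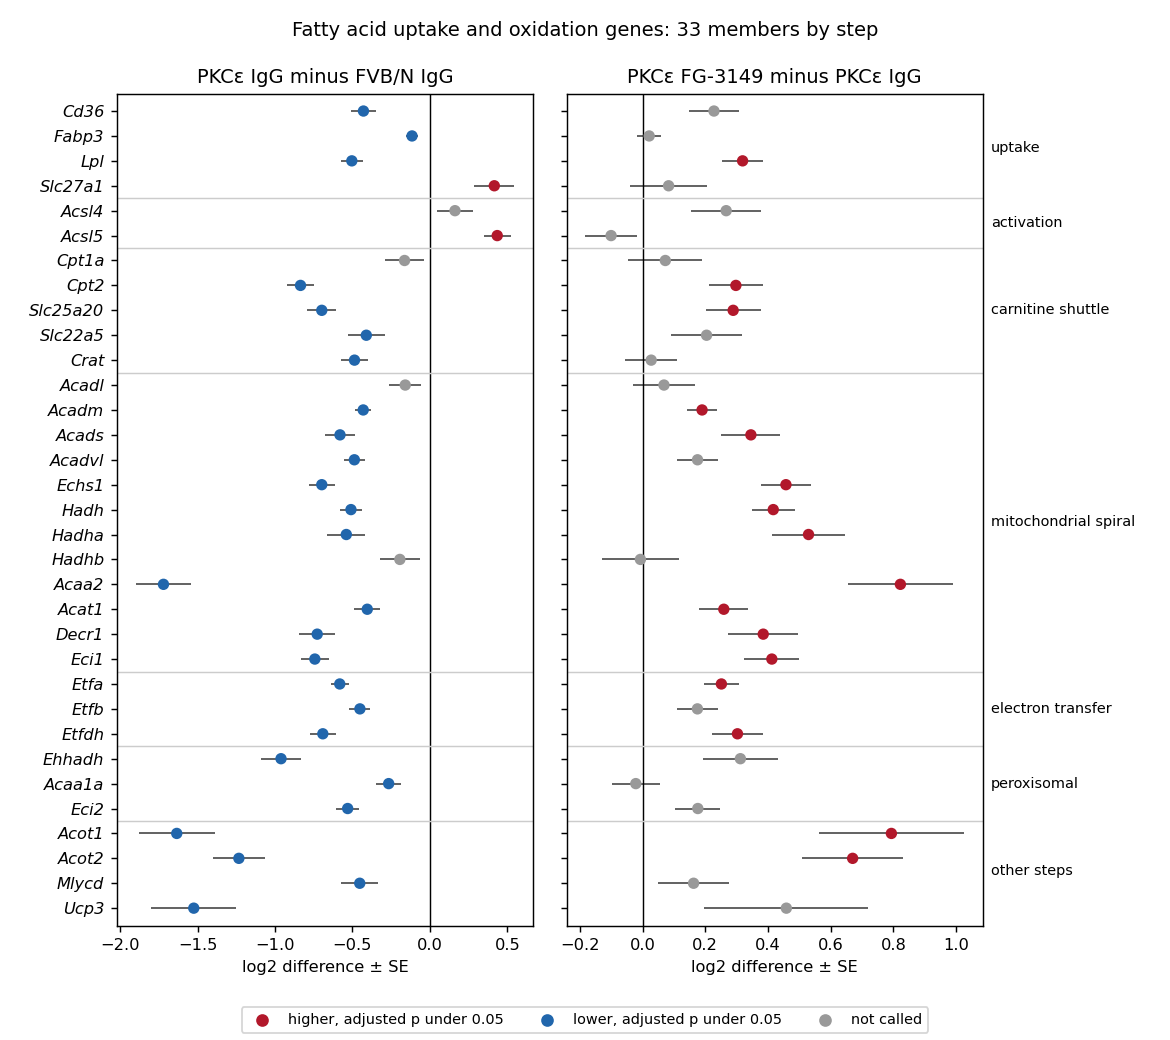
Log2 difference ± SE (limma) of each of 33 members, by step, for PKCε IgG minus FVB/N IgG (left) and PKCε FG-3149 minus PKCε IgG (right); colours mark adjusted p under 0.05. Points lie left of 0 for 30 members in the left panel and right of 0 for 30 in the right panel, and the axes differ in scale.

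With the antibody, part of the pathway stood higher within the transgenic mice. Of the 33 members, 16 were higher and 0 lower in PKCε with FG-3149 than in PKCε with IgG, where 5.08% of all genes were called higher, 3.74% lower and 8.82% in either direction. The median log2 difference was 0.26 over the members and 0.02 over all genes. The spiral held 9 of the 16 calls among its 12 members, and 2 of 3 electron transfer genes, 2 of 5 shuttle genes, 1 of 4 uptake genes and both thioesterases rose, with 0 calls among activation and peroxisomal genes. At an unadjusted p under 0.05 the count was 22 of 33, against 22.3% of all genes. The groups separated fully in 0 members, against 0.0645% of all genes wholly above and 0.0484% wholly below. All 16 belonged to the 27 that were lower in PKCε under IgG, but both comparisons use the same PKCε IgG arrays.

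This count depended on arrays that stood apart and on other measures. It was 8 without PKCε IgG replicates 9 and 10, 7 without the 4 arrays of mean lung level above 2, and 7 without the 10 arrays of high atrial level. It was 5 with the Gapdh difference as a covariate, which averaged 0.04 ± 0.11 in PKCε with FG-3149 and 0.30 ± 0.25 in PKCε with IgG (SD). The Actb difference averaged -0.05 ± 0.16 and 0.09 ± 0.25 in these groups. Some members that lost their call with the Gapdh covariate kept a like difference, among them Cpt2 (0.32, adjusted p = 0.054), Acot1 (0.80, adjusted p = 0.082) and Decr1 (0.37, adjusted p = 0.092). Acaa2 then had 0.43 (adjusted p = 0.098) and Etfa 0.13 (adjusted p = 0.16). Shares over all genes are not given for these refits. A loss of calls over all genes therefore cannot be told from one particular to the members.

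Of the 9 fibroblast markers, 4 were lower in PKCε with FG-3149 than in PKCε with IgG. With their mean level as a covariate 4 members were called, among them Acaa2, Echs1 and Hadh, and the median difference was 0.10. A clock score (8 Per, Nr1d and PAR bZIP genes minus Arntl, Clock and Npas2) averaged 1.07 ± 0.97 in PKCε with FG-3149, against -0.82 ± 0.71 in PKCε with IgG, and with this score as a covariate 12 members were called. Echs1 and Hadh were called in each setting of this and the preceding paragraph. Shares over all genes are not given for the fibroblast and clock settings either.

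Lpl, Cd36, Fabp3 and Slc27a1 act in uptake. Lpl encodes the lipoprotein lipase that frees fatty acids from circulating triglyceride. Its log2 level had a lowest, median and highest value of -0.11, -0.06 and 0.04 in PKCε with FG-3149 and of -0.78, -0.31 and -0.04 in PKCε with IgG. In FVB/N it had -0.19, 0.16 and 0.32 under IgG. All 12 PKCε antibody arrays lay above the PKCε IgG median, and 7 of 10 PKCε IgG arrays lay below every FVB/N IgG array, with overlap in both comparisons. The transgene difference under IgG was -0.50 ± 0.069 (adjusted p = 1.1e-07), and the antibody difference within PKCε was 0.32 ± 0.066 (adjusted p = 0.0015). A further Lpl probe set gave -0.16 (adjusted p = 0.00058) and 0.07 (adjusted p = 0.22), so the antibody call rests on 1 of 2 probe sets. Adipocytes also express Lpl, and the mean adipocyte marker level was -0.18 in PKCε with FG-3149, -0.30 in PKCε with IgG and 1.16 in FVB/N with IgG. In FVB/N with FG-3149 that level was -0.09, and the median Lpl level there was 0.20. With the adipocyte level as a covariate Lpl kept both its transgene call under IgG and its antibody call in PKCε. The antibody call was lost with the Gapdh covariate (0.23, adjusted p = 0.056) and with the fibroblast covariate (0.20, adjusted p = 0.0504). With the fibroblast covariate the transgene difference under IgG was -0.14 (adjusted p = 0.46). How much of the Lpl level comes from adipocytes was not tested.

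Cd36, the fatty acid translocase of the plasma membrane, fell under IgG by 0.43 ± 0.083 on the log2 scale in PKCε (1.35-fold, adjusted p = 5.1e-05). Its 3 probe sets gave -0.43, -0.19 and -0.07, the last of them not called. Fabp3, the heart fatty acid binding protein of the cytosol, fell by 0.12 ± 0.040 (adjusted p = 0.018), the smallest called difference of the 33 members. That call was lost in several settings, among them quantile normalization (-0.09, adjusted p = 0.074), no sex term (-0.10, adjusted p = 0.058) and the ventricular marker covariate (-0.06, adjusted p = 0.21). With the antibody in PKCε, Cd36 had a log2 difference of 0.23 (adjusted p = 0.062) and Fabp3 of 0.02 (adjusted p = 0.81), neither past the test.

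Slc27a1, a fatty acid transport protein, moved against the other uptake genes. Its lowest, median and highest log2 levels were -0.25, 0.04 and 0.64 in PKCε with IgG and -0.67, -0.24 and -0.10 in FVB/N with IgG. In FVB/N with FG-3149 they were -0.19, 0.20 and 0.52. FVB/N with IgG was thus the low group: 6 of 10 PKCε IgG arrays and 11 of 12 FVB/N antibody arrays lay above all of its arrays. The transgene difference was 0.42 ± 0.129 (adjusted p = 0.0088), and the antibody difference in FVB/N was 0.53 ± 0.124 (adjusted p = 0.0048). Without the 10 arrays of high atrial level these were 0.29 (adjusted p = 0.16) and 0.39 (adjusted p = 0.28).

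Activation was represented by Acsl4 and Acsl5, which join fatty acids to coenzyme A. Acsl5 had a lowest, median and highest log2 level of -0.17, 0.23 and 0.63 in PKCε with IgG and of -0.58, -0.14 and 0.26 in FVB/N with IgG. The PKCε arrays tended higher but overlapped, with 9 of 10 above the FVB/N IgG median, and the difference was 0.43 ± 0.086 (adjusted p = 6.8e-05). Under the antibody Acsl5 was again higher in PKCε than in FVB/N, by 0.31 ± 0.078 (adjusted p = 0.0013), with 9 of 12 arrays above every FVB/N antibody array. Acsl4 had a transgene difference of 0.16 (adjusted p = 0.26), and its 3 probe sets gave antibody differences in PKCε of 0.27, -0.13 and 0.02, none called.

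In the carnitine shuttle, Cpt2 regenerates acyl-CoA on the matrix side of the inner mitochondrial membrane. Its log2 level had a lowest, median and highest value of -0.57, -0.18 and 0.03 in PKCε with FG-3149 and of -1.14, -0.45 and -0.09 in PKCε with IgG. The FVB/N values were 0.40, 0.53 and 0.66 with FG-3149 and -0.17, 0.31 and 0.76 with IgG. Among antibody-treated mice the genotypes did not overlap, and under IgG 8 of 10 PKCε arrays lay below every FVB/N array. The transgene difference was -0.84 ± 0.090 under IgG (1.78-fold lower, adjusted p = 5.6e-10) and -0.72 ± 0.081 under FG-3149 (adjusted p = 1.8e-09). Cpt2 was higher with the antibody in PKCε by 0.30 ± 0.085 (adjusted p = 0.022), a call that its other probe set (0.11, adjusted p = 0.46) did not share.

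Slc25a20, the carnitine-acylcarnitine translocase, followed the same order, with lowest, median and highest log2 levels of -0.59, -0.15 and 0.18 in PKCε with FG-3149, -1.17, -0.48 and -0.10 in PKCε with IgG, and -0.46, 0.09 and 0.63 in FVB/N with IgG. It fell by 0.70 ± 0.092 in PKCε under IgG (adjusted p = 5e-08) and rose by 0.29 ± 0.087 with the antibody (adjusted p = 0.030). Its other probe set shared the transgene call but not the antibody call (0.12, adjusted p = 0.53). The carnitine importer Slc22a5 fell by 0.41 ± 0.119 (adjusted p = 0.0051). Crat, the carnitine acetyltransferase, fell by 0.49 ± 0.087 (adjusted p = 1.5e-05). Cpt1a, the outer membrane enzyme whose isoform predominates in liver, gave transgene differences of -0.16, 0.00 and 0.18 on its 3 probe sets, none called.

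The mitochondrial spiral, with 12 of the 33 members, was the largest step and the one with the most calls. Acaa2, a thiolase of the spiral, had the largest difference of the 33 members. Its lowest, median and highest log2 levels were -0.98, -0.31 and 0.03 in PKCε with FG-3149 and -2.55, -1.14 and -0.39 in PKCε with IgG. In FVB/N they were -0.04, 0.76 and 1.24 with FG-3149 and 0.04, 0.50 and 0.65 with IgG. The PKCε IgG arrays were spread widely, all of them below FVB/N, and the PKCε antibody arrays lay between, with 8 of 12 above every PKCε IgG array. The transgene difference was -1.72 ± 0.178 under IgG (3.29-fold lower, adjusted p = 2.1e-10), and the antibody difference in PKCε was 0.82 ± 0.169 (1.77-fold, adjusted p = 0.0014). In males alone the antibody difference was 0.32 (adjusted p = 0.61). The other Acaa2 probe sets gave smaller values of the same direction, -1.08 and -1.05 for the transgene and 0.49 and 0.37 for the antibody, all called.

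**Figure D2:**
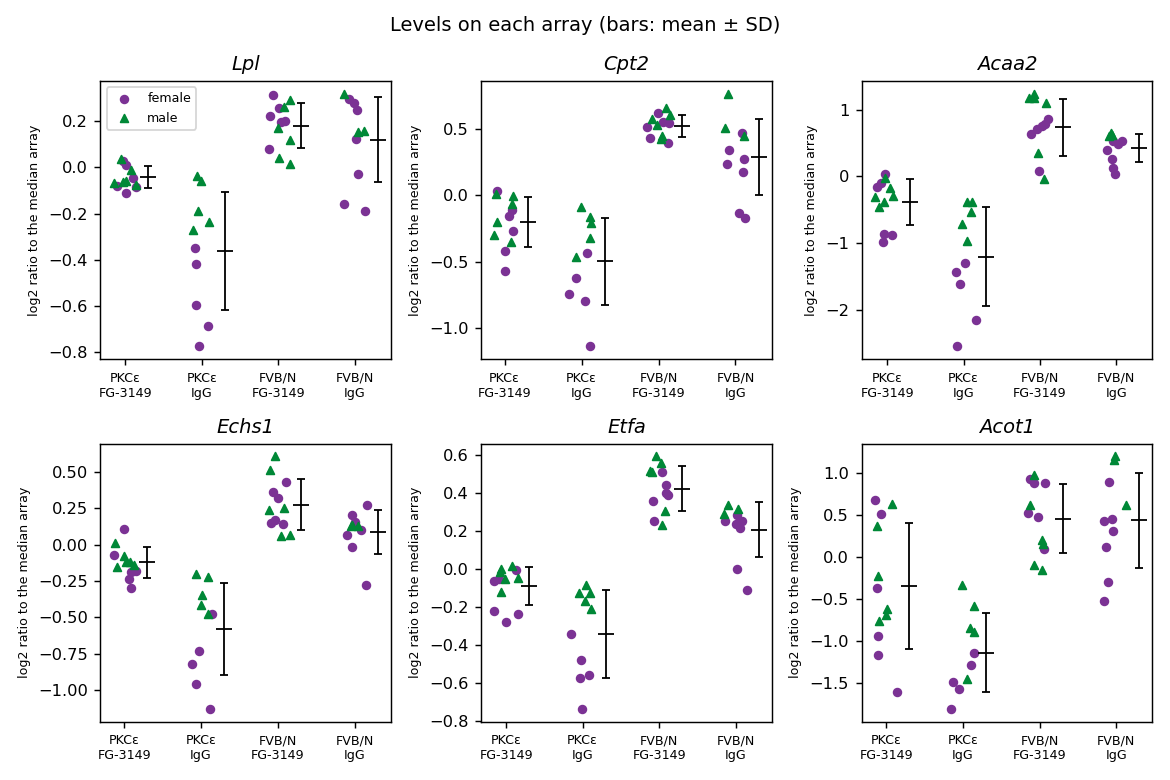
Log2 level on each array for Lpl, Cpt2, Acaa2, Echs1, Etfa and Acot1 in the 4 groups, with circles for females, triangles for males and bars for mean ± SD. Females of PKCε with IgG form the low end for Acaa2, between -2.55 and -1.31, below its males between -0.97 and -0.39.

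Echs1, the short-chain enoyl-CoA hydratase of the spiral, separated the 2 PKCε groups best. Its lowest, median and highest log2 levels were -0.30, -0.13 and 0.11 in PKCε with FG-3149 and -1.13, -0.48 and -0.20 in PKCε with IgG, against -0.28, 0.13 and 0.27 in FVB/N with IgG. Of 12 PKCε antibody arrays, 10 lay above every PKCε IgG array. It fell by 0.70 ± 0.083 with the transgene (adjusted p = 4.9e-09) and rose by 0.46 ± 0.079 with the antibody (adjusted p = 0.00019).

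Hadh, the 3-hydroxyacyl-CoA dehydrogenase for shorter chains, had the lowest antibody p of the members. Its levels were -0.32, 0.03 and 0.30 in PKCε with FG-3149 and -1.07, -0.35 and 0.00 in PKCε with IgG, against -0.36, -0.02 and 0.43 in FVB/N with IgG (lowest, median and highest). The ranges overlapped, and 6 of 12 PKCε antibody arrays lay above every PKCε IgG array. The transgene difference was -0.51 ± 0.071 (adjusted p = 1.7e-07) and the antibody difference 0.42 ± 0.068 (adjusted p = 9.9e-05).

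Hadha and Hadhb encode the subunits of the mitochondrial trifunctional protein, which carries out the later reactions on long chains. Hadha had lowest, median and highest levels of -0.45, 0.00 and 0.47 in PKCε with FG-3149 and of -1.36, -0.42 and -0.17 in PKCε with IgG. It fell by 0.54 ± 0.123 with the transgene (adjusted p = 0.00045) and rose by 0.53 ± 0.117 with the antibody (adjusted p = 0.0029), with 9 of 12 arrays above every PKCε IgG array. Hadhb had differences of -0.19 (adjusted p = 0.22) and -0.01 (adjusted p = 0.98). A further Hadhb probe set gave -0.19 (adjusted p = 0.0024) and 0.12 (adjusted p = 0.14), so only its transgene difference passed, and a difference between the subunits was not tested.

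The dehydrogenases that open each round are sorted by chain length. Acadvl, for very long chains, fell by 0.49 ± 0.069 in PKCε under IgG (adjusted p = 2.1e-07). Acadm, for medium chains, fell by 0.43 ± 0.051 (adjusted p = 4.1e-09), and Acads, for short chains, by 0.58 ± 0.099 (adjusted p = 7.1e-06). With the antibody Acads rose by 0.35 (adjusted p = 0.016) and Acadm by 0.19 (adjusted p = 0.0092), while Acadvl had 0.18 (adjusted p = 0.088). Acadl, for long chains, had -0.16 (adjusted p = 0.21) with the transgene on the probe set used and -0.26 (adjusted p = 3.3e-05) on its other, where the antibody difference was 0.19 (adjusted p = 0.0072) against 0.07 on the probe set used.

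The auxiliary enzymes of unsaturated chains moved with the core. Decr1, the dienoyl-CoA reductase, fell by 0.73 ± 0.117 with the transgene (adjusted p = 2.3e-06) and rose by 0.38 ± 0.111 with the antibody (adjusted p = 0.022). Eci1, the enoyl-CoA isomerase, fell by 0.74 ± 0.092 (adjusted p = 1.3e-08) and rose by 0.41 ± 0.087 (adjusted p = 0.0019). Acat1, a thiolase of short acetoacetyl units also used in ketone body metabolism, fell by 0.40 ± 0.083 (adjusted p = 0.00011) and rose by 0.26 ± 0.079 (adjusted p = 0.031).

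Start site windows from RefSeq (GRCm38.p6, 250 bases before to 50 after the start) are shown for the spiral genes that bear on these values. Hadha and Hadhb are a divergent pair whose starts lie 273 bases apart, so their windows (Hadha chr5:30154931-30155230, minus strand; Hadhb chr5:30155003-30155302, plus strand) share 228 bases, in capitals in the first sequence. The other 3 are the spiral members whose window holds the nuclear receptor half-site AGGTCA on either strand, in capitals: Acadm (chr3:153944594-153944893, minus strand), Acadvl (chr11:70015379-70015678, minus strand) and Echs1 (chr7:140116372-140116671, minus strand).
Hadha: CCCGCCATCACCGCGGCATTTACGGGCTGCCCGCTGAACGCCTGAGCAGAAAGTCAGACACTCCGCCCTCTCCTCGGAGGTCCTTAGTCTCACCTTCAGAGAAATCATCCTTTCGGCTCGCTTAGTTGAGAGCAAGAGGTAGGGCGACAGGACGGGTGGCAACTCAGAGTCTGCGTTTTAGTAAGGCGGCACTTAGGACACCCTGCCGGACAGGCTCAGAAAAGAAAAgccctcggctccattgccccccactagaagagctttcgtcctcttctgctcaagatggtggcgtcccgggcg
Acadm: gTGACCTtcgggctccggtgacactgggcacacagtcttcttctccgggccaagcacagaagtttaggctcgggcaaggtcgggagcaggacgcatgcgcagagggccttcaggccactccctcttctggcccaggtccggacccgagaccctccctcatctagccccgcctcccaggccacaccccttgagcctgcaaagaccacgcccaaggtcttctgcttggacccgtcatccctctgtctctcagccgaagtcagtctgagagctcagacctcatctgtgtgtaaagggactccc
Acadvl: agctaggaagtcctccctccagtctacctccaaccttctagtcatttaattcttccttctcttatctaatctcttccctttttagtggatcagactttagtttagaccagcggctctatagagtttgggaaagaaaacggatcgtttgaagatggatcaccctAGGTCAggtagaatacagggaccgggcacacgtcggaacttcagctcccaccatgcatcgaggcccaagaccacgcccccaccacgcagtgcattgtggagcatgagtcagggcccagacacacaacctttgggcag
Echs1: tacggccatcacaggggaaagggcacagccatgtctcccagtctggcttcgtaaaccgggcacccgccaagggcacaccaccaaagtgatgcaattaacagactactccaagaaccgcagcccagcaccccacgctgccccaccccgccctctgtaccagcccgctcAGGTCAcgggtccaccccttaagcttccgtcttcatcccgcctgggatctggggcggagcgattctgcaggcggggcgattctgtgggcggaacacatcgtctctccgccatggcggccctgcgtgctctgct
Half-sites on the gene's own strand began 87 bases before the Acadvl start and 83 before the Echs1 start, and that of Acadm lay on the opposite strand at the far edge of its window. A window was given for 28 of the 33 members, in 30 windows. Acaa2, Acat1, Crat, Decr1 and Lpl had no window and were not searched. The half-site was found in 6 of 30 (20.0%: Acadm, Acadvl, Cd36, Cpt1a, Echs1 and Ucp3), against 16.3% of 32851 windows of all genes. The extended half-site TCAAGGTCA was found in 0 of 30 member windows and 0.423% of all, and the tandem half-site with 1 base between in 0 of 30 and 0.0396%; every tandem match is also a half-site match, as is every extended one. A match is a run of letters and no measure of binding.

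Electrons leave the acyl-CoA dehydrogenases through the electron transfer flavoprotein, made of the Etfa and Etfb products, and its ubiquinone oxidoreductase, the Etfdh product. Etfa had lowest, median and highest log2 levels of -0.28, -0.05 and 0.02 in PKCε with FG-3149 and of -0.74, -0.28 and -0.09 in PKCε with IgG. In FVB/N it had 0.23, 0.42 and 0.59 with FG-3149 and -0.11, 0.25 and 0.34 with IgG. The antibody groups of the genotypes did not overlap, and 9 of 10 PKCε IgG arrays lay below every FVB/N IgG array. Etfa had the lowest transgene p of the 33 members, with -0.58 ± 0.058 under IgG (adjusted p = 9.8e-11), and it rose with the antibody in PKCε by 0.25 ± 0.055 (adjusted p = 0.0028) and in FVB/N by 0.18 ± 0.056 (adjusted p = 0.035). Etfdh fell by 0.69 ± 0.085 (adjusted p = 1.1e-08) and rose by 0.30 ± 0.081 (adjusted p = 0.013). Etfb fell by 0.45 ± 0.068 (adjusted p = 6.5e-07), with an antibody difference of 0.17 (adjusted p = 0.080).

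The peroxisomal members fell with the transgene. Ehhadh, the peroxisomal bifunctional enzyme, had lowest, median and highest levels of -0.58, -0.29 and 0.33 in PKCε with FG-3149, -1.12, -0.60 and 0.03 in PKCε with IgG and -0.22, 0.25 and 1.17 in FVB/N with IgG. Of 10 PKCε IgG arrays 8 lay below every FVB/N IgG array, and the difference was -0.96 ± 0.127 (1.95-fold lower, adjusted p = 4.8e-08). Eci2, an isomerase, fell by 0.53 ± 0.076 (adjusted p = 2.3e-07) and Acaa1a, the peroxisomal thiolase, by 0.27 ± 0.081 (adjusted p = 0.0074). Antibody differences in PKCε were 0.31 for Ehhadh (adjusted p = 0.098), 0.18 for Eci2 and -0.02 for Acaa1a, none called.

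The thioesterases Acot1 (cytosolic) and Acot2 (mitochondrial) split acyl-CoA back to free fatty acid, and with the uncoupling protein Ucp3 they are known targets of the fatty acid receptor PPARα. Acot1 had lowest, median and highest levels of -1.62, -0.50 and 0.68 in PKCε with FG-3149 and of -1.82, -1.22 and -0.33 in PKCε with IgG. In FVB/N with IgG it had -0.53, 0.44 and 1.199. The PKCε antibody arrays reached into both of the other ranges. Acot1 fell by 1.63 ± 0.244 with the transgene (3.1-fold, adjusted p = 5.8e-07) and rose by 0.79 ± 0.231 with the antibody (adjusted p = 0.024). Acot2 had levels of -1.10, -0.14 and 0.23 in PKCε with FG-3149, -1.80, -0.75 and -0.20 in PKCε with IgG and -0.43, 0.30 and 0.69 in FVB/N with IgG. With 7 of 12 antibody arrays above every PKCε IgG array, Acot2 rose by 0.67 ± 0.160 (adjusted p = 0.0058), and with the transgene it fell by 1.23 ± 0.169 (adjusted p = 1e-07). The coding sequences of these neighbours are alike, so cross-hybridisation between their probe sets was not tested, and a probe set shared by both was not used.

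Ucp3 fell by 1.52 ± 0.276 with the transgene (2.88-fold, adjusted p = 1.7e-05), with levels from -2.61 to 0.66 in PKCε with IgG and from -0.42 to 2.01 in FVB/N with IgG. Its antibody difference in PKCε was 0.46 ± 0.261 (adjusted p = 0.31). Mlycd, which removes the malonyl-CoA that inhibits the carnitine shuttle, fell by 0.45 ± 0.119 (adjusted p = 0.0020) and had an antibody difference of 0.16 (adjusted p = 0.43).

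The transgene difference was measured a second time, on other arrays, in the antibody-treated mice. In PKCε with FG-3149 relative to FVB/N with FG-3149, 25 members were lower and 1 higher, where 25.5% of all genes were lower and 21.5% higher, 47.0% in either direction. The median log2 difference was -0.40 over the members and -0.05 over all genes. In 11 members all 12 PKCε arrays lay below all 12 FVB/N arrays, which 2.56% of all genes showed: Cd36, Cpt2, Slc25a20, Crat, Acadvl, Decr1, Eci1, Etfa, Etfb, Etfdh and Eci2. Wholly above lay 0 members and 2.69% of all genes. Across the 33 members the differences under FG-3149 and under IgG had a Pearson r of 0.905 and a Spearman rho of 0.856, given as a description over genes that are not independent. The size was smaller under FG-3149 for 28 of 33 members, and 25 members were lower in both comparisons. Hadha (-0.22, adjusted p = 0.099) and Slc22a5 (-0.24, adjusted p = 0.063) were called under IgG but not here. Slc27a1, higher under IgG, had -0.03 here (adjusted p = 0.85). With the fibroblast marker level as a covariate 2 members were called, both lower, and the median difference was 0.03. The share of all genes is not given for that fit. The fibroblast marker level ran from -0.07 to 0.90 in PKCε with FG-3149 and from -1.11 to -0.49 in FVB/N with FG-3149, with no overlap.

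**Figure D3:**
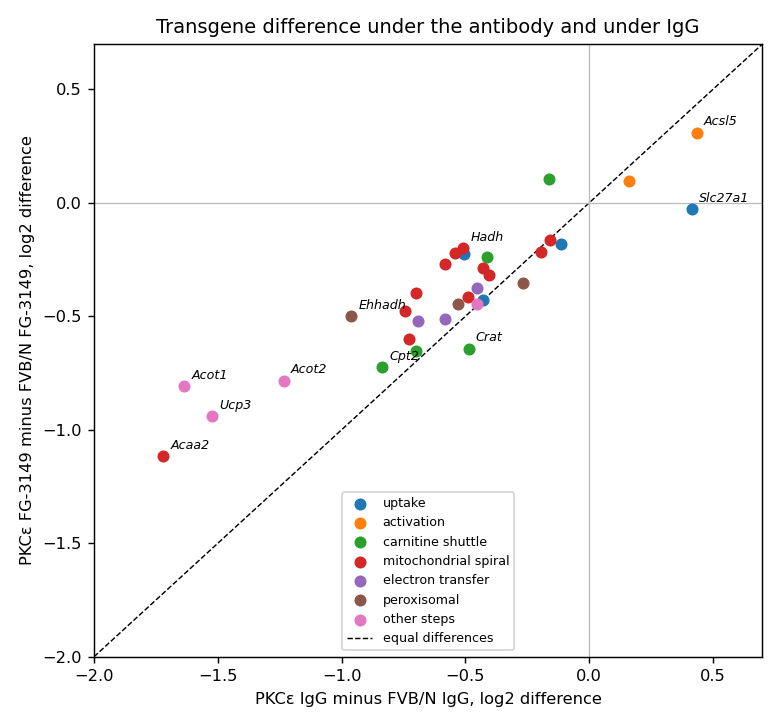
Log2 difference of PKCε minus FVB/N for each of 33 members under FG-3149 (vertical) and under IgG (horizontal), coloured by step, with a dashed line of equal differences. Acaa2 lies at -1.72 under IgG and -1.12 under FG-3149, and 28 of 33 members are smaller in size under FG-3149.

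The direct test of that change in size is the antibody-by-transgene interaction in limma, which called 0 of 33 members, against 3.86% of all genes, 2.09% with a positive interaction. At an unadjusted p under 0.05 it named 10 members, 9 with a larger antibody difference in PKCε than in FVB/N, where 16.2% of all genes had such a p. Hadh (0.31 ± 0.096, adjusted p = 0.059) and Lpl (0.28 ± 0.093, adjusted p = 0.081) came nearest. Acaa2 had an interaction of 0.61 ± 0.240 (adjusted p = 0.17) and Acot1 of 0.83 ± 0.329 (adjusted p = 0.17). The counts under other settings ran between 0 and 2.

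In FVB/N mice without the transgene the antibody called 2 members higher, Slc27a1 and Etfa, and 0 lower, where 4.43% of all genes were called higher and 4.57% lower. At an unadjusted p under 0.05 there were 10, all higher, which is 10 of 33 against 22.4% of all genes. The median log2 difference was 0.11 over the members and 0.03 over all genes. In females alone the median was 0.23 with 17 members at an unadjusted p under 0.05, all higher. In males alone it was -0.03 with 3, all lower. Shares over all genes are not given for these single-sex fits, and that difference between the sexes was not tested. FVB/N with IgG held 5 of the 10 arrays of high atrial level, all 5 from females, and its male fit rested on 3 IgG mice. The sexes and these arrays therefore cannot be told apart well in FVB/N. Without those 10 arrays 0 members were called, and the share of all genes is not given for that fit. Without FVB/N FG-3149 replicate 11 the count was 1.

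The members also differed by sex. Fitted over all groups, 17 members were lower and 1 (Acsl5) higher in females than in males, where 7.12% of all genes were lower and 8.67% higher. The median log2 difference was -0.17 over the members and -0.02 over all genes. Hadh led, with group levels in females and males of -0.15 and 0.17 in PKCε with FG-3149, -0.70 and -0.10 in PKCε with IgG, 0.03 and 0.40 in FVB/N with FG-3149, and -0.15 and 0.41 in FVB/N with IgG. Females were lower in every group, and the difference was -0.45 ± 0.049 (adjusted p = 1.2e-08). Ucp3 had the largest difference, -0.92 ± 0.188 (adjusted p = 0.00075), followed by Acaa2 with -0.46 ± 0.121 (adjusted p = 0.0074), Hadh, and Slc25a20 with -0.40 ± 0.063 (adjusted p = 2e-05). Fibroblast markers were higher in females for 5 of 9 genes and macrophage markers for 4 of 7. The mean clock score was also higher in females than in males in every group. It was -0.30 in females and -1.33 in males of PKCε with IgG, and 0.41 and -1.17 in FVB/N with IgG. The 4 arrays of mean lung level above 2 were all from females, as were most of the arrays of high atrial level. The mean adipocyte marker level was higher in females than in males in every group. The sex difference was not refitted with any of these levels or the clock score as a covariate, or without those arrays. Their part in the sex difference was not tested. Without FVB/N FG-3149 replicate 11 the count was 20, all lower in females.

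Averaged over 33 members, the log2 level in females was -0.18 ± 0.14 in PKCε with FG-3149 (n = 6) and -0.58 ± 0.19 in PKCε with IgG (n = 5). In males it was -0.04 ± 0.12 (n = 6) and -0.19 ± 0.09 (n = 5). The 5 PKCε IgG females, between -0.85 and -0.40, were the lowest of all, below the males of that group between -0.33 and -0.11. Fitted in females alone, 17 members were called higher with the antibody in PKCε (median 0.38 over the 33). In males alone the count was 0 (median 0.12), and 9 had an unadjusted p under 0.05. Shares over all genes are not given for these single-sex fits, so whether the members moved more than other genes within a sex is not shown. The difference between the sexes in the antibody effect was called in 0 of 33 members and 0.0161% of all genes, 0.00807% in each direction. At an unadjusted p under 0.05 it named 16 members, each with the larger rise in females, and 7.996% of all genes, and the lowest adjusted p was 0.25, for Lpl. PKCε IgG females include the arrays with lung transcripts, and their mouse numbers do not overlap those of the males.

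**Figure D4:**
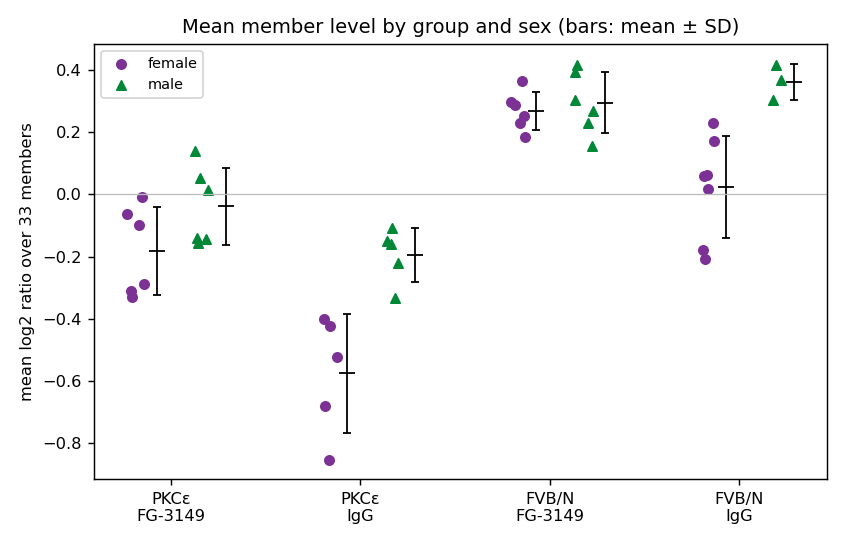
Mean log2 level over 33 members on each array, by group and sex, with bars for mean ± SD. The 5 PKCε IgG females lie between -0.85 and -0.40, below the males of the same group.

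The transgene difference under IgG was seen in either sex fitted alone, with 28 members called in females and 24 in males. Shares over all genes are not given for these single-sex fits. The sex difference in the transgene effect was called in 0 members, and in 0.0807% of all genes, with 4 members and 8.60% of all genes at an unadjusted p under 0.05. For Acaa2 the transgene difference was -2.15 ± 0.207 in females (adjusted p = 1.3e-07) and -1.22 ± 0.227 in males (adjusted p = 0.00073), and its interaction had an adjusted p of 0.42.

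**Figure D5:**
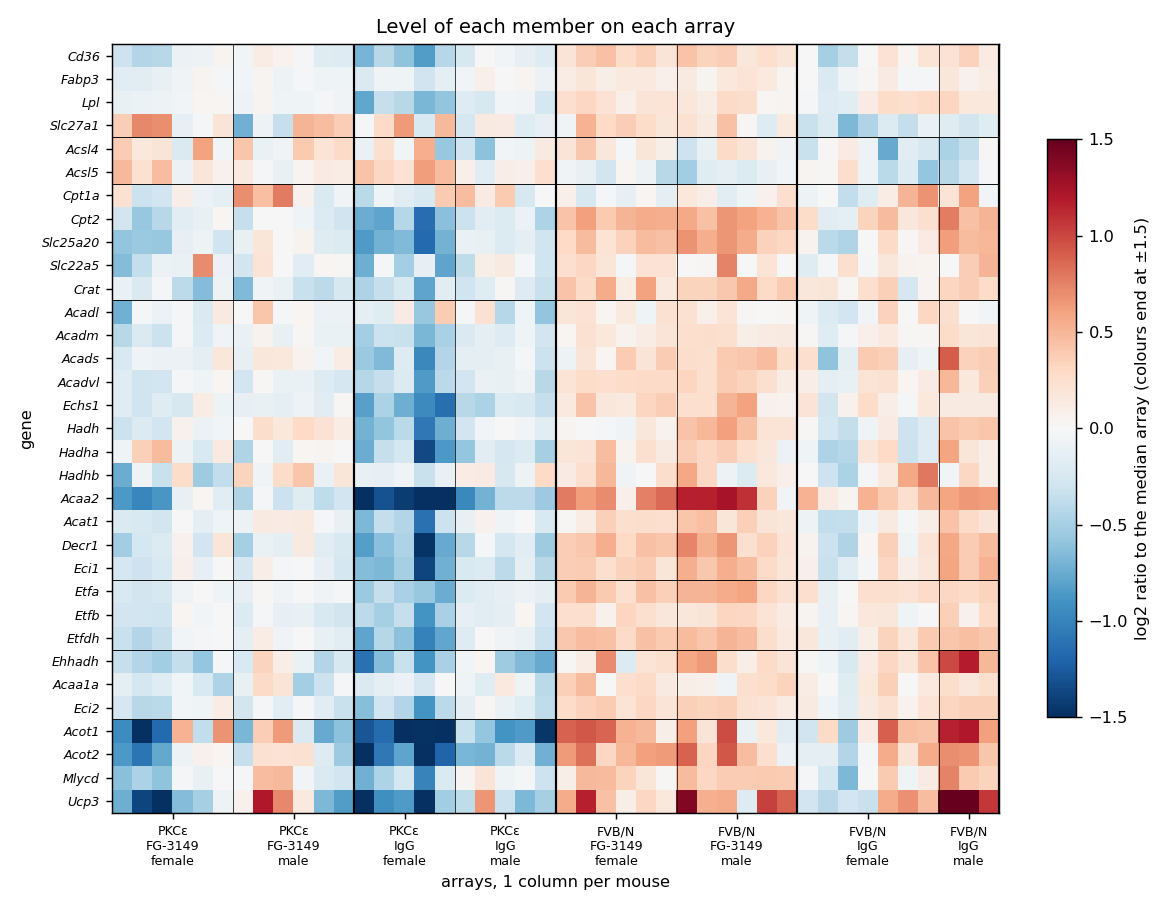
Log2 level of each of 33 members (rows, by step) on each of 44 arrays (columns, by group and sex), with colours ending at ±1.5. Blue columns gather in PKCε with IgG, most of all in its females, and Slc27a1 and Acsl5 run against the rows around them.

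Related genes outside the 37 were read from lists chosen by pathway. Over all genes 21.5% were called lower and 20.7% higher with the transgene under IgG, and 5.08% higher and 3.74% lower with the antibody in PKCε. Of 29 further oxidation genes, 17 fell and 1 rose with the transgene under IgG, and 5 rose and 1 fell with the antibody in PKCε. Phyh, the peroxisomal enzyme that starts alpha oxidation of phytanic acid, fell by 0.49 ± 0.039 (adjusted p = 3.2e-13) and rose by 0.24 ± 0.037 (adjusted p = 5.5e-05). The acyl-CoA synthetase Acsl6 fell by 0.98 ± 0.095 (adjusted p = 4.2e-11) and rose by 0.49 ± 0.090 (adjusted p = 0.00042).

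Of 13 triglyceride storage and release genes, 9 fell with the transgene and 3 rose with the antibody in PKCε. Adipocytes express genes of this list too, and 8 of 8 adipocyte markers were lower in PKCε with IgG than in FVB/N with IgG (median log2 difference -1.22), while 0 of 8 were called with the antibody in PKCε; their part in the result was not tested. Dgat2, which makes triglyceride, fell by 0.95 ± 0.116 (adjusted p = 8.9e-09) and rose by 0.54 ± 0.110 (adjusted p = 0.0014). The triglyceride lipase Pnpla2 fell by 0.38 (adjusted p = 0.00049) and rose by 0.27 (adjusted p = 0.033).

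Of 17 regulators of the pathway, 8 fell and 1 rose with the transgene, and 1 rose with the antibody in PKCε, a share near that of all genes. Ppargc1a, the coactivator PGC-1α, fell by 0.76 ± 0.129 (adjusted p = 6.2e-06) and was the only one of them called with the antibody in PKCε, at 0.56 ± 0.122 (adjusted p = 0.0027). The deacetylase Sirt3 fell by 0.33 ± 0.053 and the retinoid receptor Rxrg by 0.49 ± 0.097. Among 4 measured pyruvate dehydrogenase kinases and phosphatases, which set the choice of glucose or fat, Pdk2 fell by 0.51 ± 0.135 and rose by 0.48 ± 0.128, while Pdk4 fell by 0.68 ± 0.249 with the transgene only (antibody 0.37, adjusted p = 0.38).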

How the data were processed

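Affymetrix 430A 2.0 arrays held left ventricular RNA of 44 mice, 1 mouse each. Per the labels and the series' design text, the authors processed the scans with GCRMA and rescaled each probe set to its median in GeneSpring GX 7.3.1, so the deposited values are linear ratios (0.01 to 1104, with 25 values at the lowest), and every one of the 22690 probe sets has a median within 0.001 of 1. No detection call or depth accompanies them, so a dim probe set cannot be told from a bright one; the number of arrays limits the precision. Mice are separate animals, as the labels give each its own number.

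Here log2 of the ratio was analysed. Of the probe sets, 20393 name 1 gene, 691 several and 1606 none; 12394 genes were kept, each by the probe set of largest SD over the 44 arrays (16 members have more than 1). limma 3.58.1 in R 4.3.3 was fitted to all arrays with group and sex (lmFit, contrasts.fit, eBayes), with Benjamini-Hochberg adjustment over all genes; sex interactions used group-by-sex means. Figures and summaries used Python 3.11.15. Scripts were tested on simulated data. Values by array are given for Acaa2, Cpt2 and Etfa, for the member of lowest p in each step and for members that moved against their step; up to 4 genes of each related list are named. Hadha and Hadhb were singled out after their values were seen. The members and lists were chosen with earlier results of these data known. Alternatives changed normalization, pseudocount, floor, probe sets, variance model, sex term, replicate block, arrays and threshold; the covariates and left-out array sets were chosen after seeing the data. Equal replicate numbers did not pair the samples: deviations from the group means correlated at a mean r of -0.009 over 62 same-number pairs.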

Additional observations from a re-analysis of the deposited data

Results flagged for a closer look

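In groups of 10 arrays, 66 sets of values were examined for an array far from the rest, of which chance sets apart about 1 in 20, and 3 were. Acadvl on PKCε IgG replicate 9 was at a log2 level of -0.8452, with the next lowest array at -0.43. Eci1 on the same array was at -1.3763, with the next at -0.72. Echs1 on FVB/N IgG replicate 2 was at -0.2792, with the next at -0.01. PKCε IgG replicate 9 is the array of highest lung marker level, and FVB/N IgG replicate 2 is an array of high atrial marker level. Without PKCε IgG replicate 9 the antibody called 12 members in PKCε and the transgene 28 under IgG.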

How the results depend on the processing

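Of 1948 recomputed values of 91 called differences, 1744 kept their side of the threshold, 185 lost it and 19 changed sign, all 19 with the fibroblast covariate. That covariate gave a transgene count of 3 under IgG, against 29 without it, and of 2 under FG-3149, against 26 (Acsl5 and Crat), an antibody count in PKCε of 4 and an interaction count of 2. Under IgG the transgene difference then became 0.14 for Acat1, -0.21 for Acsl5, 0.10 for Cd36, 0.0191 for Decr1, 0.0478 for Fabp3 and 0.26 for Mlycd. Under FG-3149 it became 0.0258 for Acadm, 0.22 for Acads, 0.22 for Acat1, 0.40 for Acot1, 0.35 for Acot2, -0.33 for Acsl5, 0.0946 for Cd36, 0.13 for Decr1, 0.0352 for Eci1, 0.15 for Hadh, 0.13 for Lpl, 0.25 for Mlycd and 0.23 for Ucp3; of these 19 values only Acsl5 under FG-3149 passed the test (adjusted p = 0.032). In the other settings the transgene count under IgG ran from 24 to 31. For the antibody in PKCε the count of 16 became 0 in males alone, 9 at an adjusted p under 0.01, 5 with the Gapdh covariate, 9 with the ventricular marker covariate, 7 without the arrays of high atrial level, 8 without PKCε IgG replicates 9 and 10, and 7 without the arrays of mean lung level above 2. For the antibody in FVB/N the count of 2 became 1 at an adjusted p under 0.01 and 0 in males alone, with the atrial or the adipocyte covariate and without the arrays of high atrial level. The interaction count of 0 became 1 with quantile normalization, the mean of probe sets or array weights, and 2 with the atrial or the clock covariate. With the replicate block the counts were 29 for the transgene under IgG, 13 for the antibody in PKCε, 1 for the antibody in FVB/N and 0 for the interaction. The cause of these shifts was not tested. Shares over all genes are not given beside these counts, so a general loss of calls cannot be told from one of the members.

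Leaving out 1 array at a time, the counts ran from 28 to 29 for the transgene under IgG, 26 to 27 under FG-3149, 12 to 18 for the antibody in PKCε, 15 to 21 by sex, 1 to 5 for the antibody in FVB/N and 0 to 2 for the interaction. The FVB/N antibody count was 1 without FVB/N FG-3149 replicate 5, 6, 7 or 11 or FVB/N IgG replicate 2 or 7, 5 without FVB/N FG-3149 replicate 9 and 4 without FVB/N IgG replicate 5. The interaction count was 2 without PKCε IgG replicate 3 or FVB/N IgG replicate 3, and 1 without PKCε FG-3149 replicate 4, PKCε IgG replicate 4 or 8, FVB/N FG-3149 replicate 11 or FVB/N IgG replicate 2 or 9.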

Other observations

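Acad9, an acyl-CoA dehydrogenase relative needed for assembly of respiratory complex I, differed between antibody and IgG mice in opposite directions by genotype. Its lowest, median and highest log2 levels were 0.02, 0.18 and 0.33 in PKCε with FG-3149 and -0.50, -0.14 and -0.03 in PKCε with IgG, so that these groups did not overlap. In FVB/N they were -0.36, -0.22 and 0.00 with FG-3149 and 0.00, 0.12 and 0.41 with IgG. It rose by 0.34 ± 0.050 in PKCε (adjusted p = 2.9e-05), fell by 0.35 ± 0.050 in FVB/N (adjusted p = 9.1e-06), and its interaction was 0.68 ± 0.071 (adjusted p = 1.4e-08). Vldlr, a lipoprotein receptor that takes part in triglyceride uptake, had an interaction of 0.57 ± 0.122 (adjusted p = 0.0031), with group means of 0.04 in PKCε with FG-3149, -0.34 in PKCε with IgG, 0.02 in FVB/N with FG-3149 and 0.17 in FVB/N with IgG. Both were singled out after their interaction values were seen.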
